A study of Mus musculus with 6 samples.

Results

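The genes described here encode 37 subunits of ATP-dependent chromatin remodeling complexes, chosen by name from the SWI/SNF (BAF), CHD, ISWI and INO80 families and matched by Ensembl identifier among the 34866 genes of the count table. All 37 had enough counts to be tested among 15216 genes tested. The assay was RNA sequencing of mouse embryonic forebrain at stage E14.5, when progenitors and newborn neurons are both present. The 3 libraries labelled mutant carried 1 floxed and 1 null allele of Sap130 (f/-), whose protein belongs to the Sin3 co-repressor with its histone deacetylases, and the 3 controls carried 1 floxed and 1 wild-type allele (f/+). Every animal of both groups carried Emx1-cre, a Cre driver of the dorsal telencephalon lineage, so recombination also occurs in controls and forebrain cells outside that lineage keep their floxed allele. The controls are described as littermates, but litters are not identified. The titles carry the number SPF-539 (replicate 1 of each group) or SPF-552 (replicates 2 and 3 of each group), and nothing in the labels says what these numbers mark.

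Remodelers use the energy of ATP to slide, evict or exchange nucleosomes. A BAF complex holds 1 of the ATPases Smarca4 (BRG1) and Smarca2 (BRM) on a core of scaffold subunits, and variable subunits set its type. Arid1a or Arid1b marks canonical BAF, Arid2, Pbrm1, Brd7 and Phf10 mark PBAF, and Brd9 marks non-canonical BAF. In the mouse nervous system, progenitors use the subunits Actl6a (BAF53a), Ss18, Phf10 (BAF45a) and Dpf2 (BAF45d), and neurons leaving the cell cycle exchange them for Actl6b (BAF53b), Ss18l1 (CREST), Dpf1 (BAF45b) and Dpf3 (BAF45c). ISWI complexes, built on Smarca5 or Smarca1, space nucleosomes, CHD proteins read methylated histone tails or act at enhancers and promoters, and Ino80 is the catalytic subunit of a complex that acts on nucleosomes holding H2A.Z.

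The exchange of the BAF53 subunit is known in mouse neurons to involve repression of Actl6a by the minor strand of miR-9, so that microRNA and its match in Actl6a are shown here. The sequence of miR-9-3p is from RefSeq (GRCm38.p6), is the same at its 3 loci on chromosomes 3, 7 and 13, and has its seed (bases 2 to 8) in capitals. The second sequence is the stretch of the Actl6a 3′ untranslated region (transcript Actl6a-201, GENCODE M21, GRCm38 chr3:32726631-32726655, plus strand) that holds the complement of the seed, in capitals.
mmu-miR-9-3p: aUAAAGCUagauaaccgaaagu
Actl6a: aacgtctgtAGCTTTAgtacactca
Searched on the sense strand, AGCTTTA occurred once in the 371 bases of the Actl6a 3′ untranslated region and not in those of Actl6b, Ss18, Ss18l1, Dpf1, Dpf2, Dpf3 or Phf10, which ran from 90 to 3087 bases. It occurred in 13.1% of the 3′ untranslated regions of 14597 tested genes, and in 1.71% of those of up to 400 bases. A match is a description of the sequence, and the microRNA itself was not analysed here.

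Library totals ran from 20775583 to 25999874 estimated counts. Sap130, read as a check of the labels, was higher in the libraries labelled mutant (124.1 to 137.7 CPM, counts scaled to library size) than in controls (82.8 to 84.9 CPM; log2 fold change 0.61, adjusted p = 0.0116), against a loss of the gene, although gene-level counts cannot show which exons were read. Each direction given here follows the label of the library. The first principal component, with 29.5% of the variance, separated SPF-539 from SPF-552. Labelled mutant replicate 1 stood apart by gene length: with all tested genes ordered by annotated exon length and cut into 5 bins of about equal size, the median difference of its log2 CPM from the control mean was -0.21 in the shortest bin and 0.17 in the longest. The other 5 libraries stayed between -0.04 and 0.04 in all 5 bins. Of the 37 remodeler genes 17 lay in the longest bin, with exons of 7602 bases or more, and 1 in each of the 2 shortest.

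Levels of the remodeler subunits are given per kilobase of annotated exon so that genes can be compared. They spanned 4.10 to 113.8 CPM per kilobase in controls, with a median of 14.8. The ATPase Smarca4 stood highest, at 99.1, 120.0 and 122.4 CPM per kilobase in control replicates 1 to 3 and 128.9, 116.5 and 126.3 in labelled mutant replicates 1 to 3. Smarcc2 (BAF170), a scaffold subunit of cortical radial glia, followed at 106.5 ± 7.17 CPM per kilobase in controls (SD, n = 3), and the control ranges of these 2 genes overlapped. Then came the core subunits Smarcd1 (54.6 ± 1.91), Smarce1 (54.2 ± 2.12) and Smarcc1 or BAF155 (49.3 ± 3.74), also per kilobase and with overlapping control ranges, below Smarcc2 on this length.

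Among the subunits that set the type of a BAF complex, Arid1a stood at 40.9 ± 2.29 CPM per kilobase in controls (SD, n = 3), above all 3 values of the next gene, Ss18l1 (29.5 ± 1.57). Its paralog Arid1b, also of canonical BAF, stood at 13.3 ± 1.21 CPM per kilobase. The PBAF subunits were lower than Arid1a, with Pbrm1 at 23.6 ± 2.62, Arid2 at 16.7 ± 1.35, Brd7 at 14.8 ± 1.11 and Phf10 at 12.4 ± 0.578 CPM per kilobase. Of these, Pbrm1, Arid2 and Brd7 had means above that of Arid1b. Brd9 of non-canonical BAF stood at 10.5 ± 0.549 CPM per kilobase. The 6 CHD genes lay between 6.65 (Chd9) and 14.3 (Chd8) CPM per kilobase in controls. The lowest levels belonged to Baz1a (4.10 ± 0.184), an accessory subunit of ISWI complexes, and to Smarcd2, Dpf3 and Ino80, at 4.99, 5.01 and 5.15 CPM per kilobase. In the order of control levels, 27 of the 36 neighbouring pairs had overlapping control values and 9 did not. Exon length is the sum of all annotated exons, and dividing by the longest annotated transcript moved the level of 35 of the 37 genes by more than the control SD, with Baz1a still the lowest. On that length Smarcc2 stood at 129.6 CPM per kilobase, and Smarca4 and Smarce1 both at 115.6, so the place of Smarce1 among the core subunits rested on the length used.

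**Figure D1:**
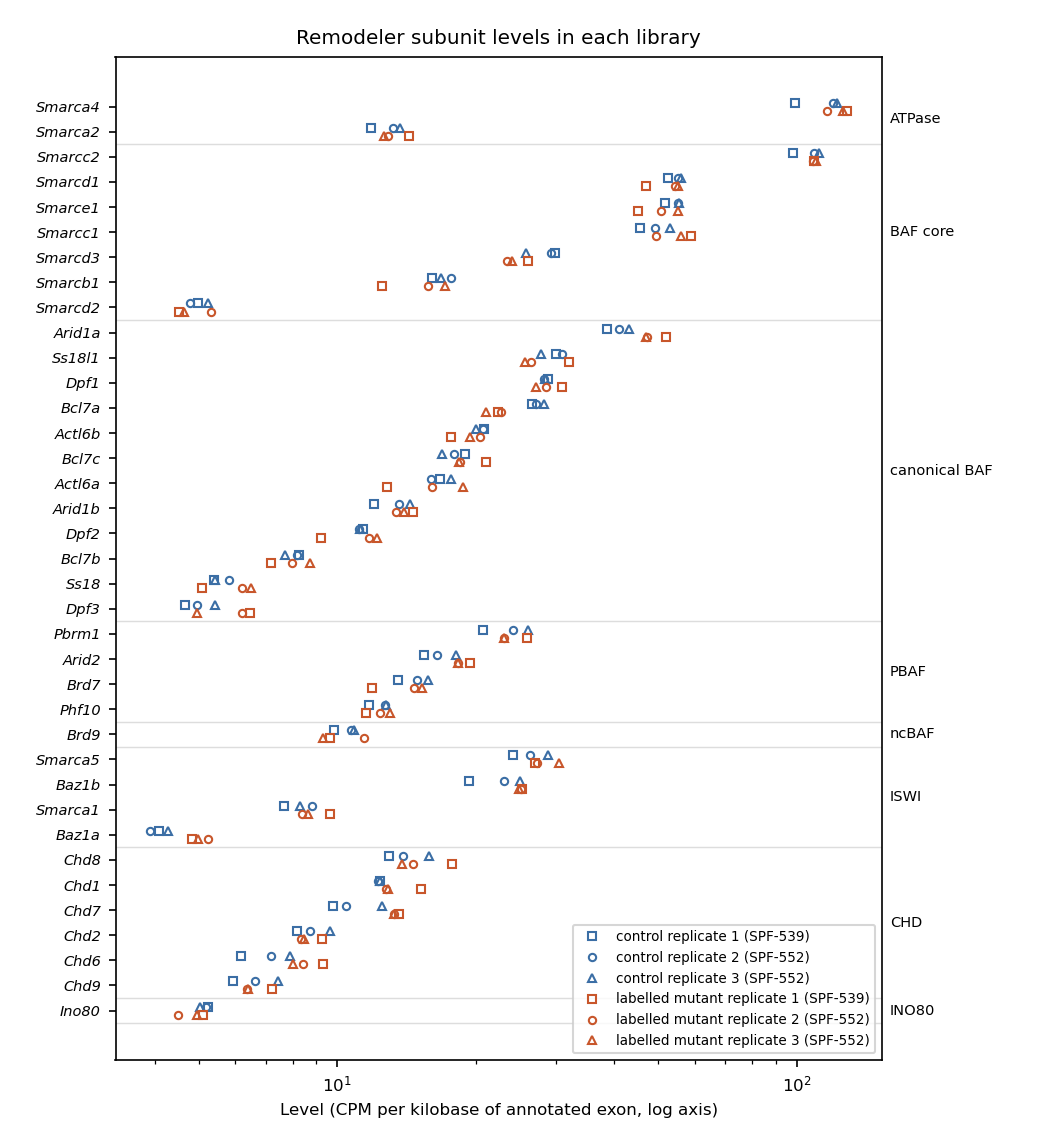
Level of each remodeler gene in CPM per kilobase of annotated exon (log axis), grouped by complex, with 1 symbol per library (squares SPF-539, circles and triangles SPF-552; controls in blue, libraries labelled mutant in orange). Smarca4 and Smarcc2 lie near or above 100 CPM per kilobase, while Baz1a lies near 4 to 5.

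Neuronal and progenitor subunits of BAF were both present in the forebrain, and the share of the neuronal form depended on the subunit. Of the SS18 subunit, Ss18l1 made up 84.7%, 84.2% and 83.7% of the summed CPM per kilobase in control replicates 1 to 3. In labelled mutant replicates 1 to 3 it made up 86.3%, 80.9% and 79.8%, on both sides of the controls. The size of the share rested on the length used, since in controls it was 70.2% with the longest transcript and 71.1% with no division by length. Of the BAF53 subunit, Actl6b made up 55.5%, 56.4% and 53.2% in controls and 57.9%, 56.0% and 50.9% in the libraries labelled mutant. Neither actin-like paralog can be called the more abundant, since the control share of Actl6b was 46.6% when the longest transcript was used as the length. Of the BAF45 subunits, Dpf1 and Dpf3 together made up 58.5% ± 0.520 in controls and 59.7% ± 4.14 in labelled mutants (SD, n = 3), the rest being Phf10 and Dpf2. Within the neuronal forms Dpf1 (28.4 ± 0.324 CPM per kilobase in controls) stood above Dpf3 (5.01 ± 0.374).

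Between labelled mutants and controls the neuronal share did not differ beyond the spread of libraries for any of these 3 subunits. The difference in the log2 ratio of neuronal to progenitor form was -0.0042 ± 0.134 (standard error) for BAF53, -0.17 ± 0.21 for SS18 and 0.074 ± 0.15 for BAF45, with exact two-sided permutation p = 1, 0.4 and 0.8. With 3 libraries against 3 this test cannot go below 0.1, so it cannot pass 0.05 for any of the 8 sets of paralogs compared. In all 3 subunits labelled mutant replicate 1 had the highest neuronal share of its group and labelled mutant replicate 3 the lowest.

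Among the 5 other sets of paralogs, that of the ARID1 subunit alone had groups without overlap. Arid1b made up 23.8%, 24.9% and 25% of the summed CPM per kilobase of Arid1a and Arid1b in control replicates 1 to 3 and 22.0%, 22.1% and 22.9% in labelled mutant replicates 1 to 3. Its log2 ratio to Arid1a was lower by 0.18 ± 0.040 in the libraries labelled mutant, with an exact two-sided permutation p = 0.1, the smallest possible, and 0.64 after adjustment over the 8 sets. Smarca2 made up 10.2% ± 0.408 of the 2 BAF ATPases in controls and 9.69% ± 0.532 in labelled mutants (SD, n = 3). This share depended on the length used: in controls it was 21.3% with the longest transcript and 20.1% with no division by length. The share of Smarcd3 (BAF60c), the neuronal and cardiac form of BAF60, among the 3 Smarcd genes was 32.2% ± 2.34 and 30.1% ± 2.94. The share of Smarcd3 is uncertain, since exons of Chpf2 on the opposite strand cover 48.2% of its exon bases. Smarcc2 made up 68.4% ± 0.488 and 66.7% ± 1.93 of the 2 scaffold subunits, and Smarca1 23.9% ± 1.33 and 24.0% ± 2.14 of the 2 ISWI ATPases, in the same order of groups. For Smarca2, Smarcc2, Smarca1 and Smarcd3 the values of the groups overlapped (exact permutation p = 0.3 to 1).

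**Figure D2:**
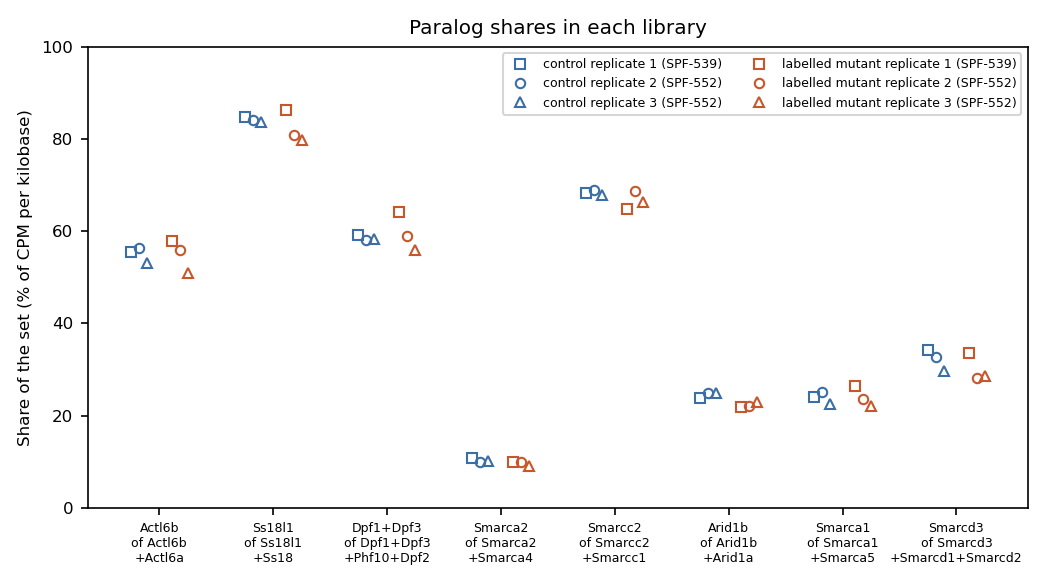
Share of 1 side of each paralog set in the summed CPM per kilobase (percent), with 1 symbol per library. The neuronal forms Actl6b, Ss18l1 and Dpf1 with Dpf3 lie at 50.9% or more in all 6 libraries, and Arid1b lies lower in the 3 libraries labelled mutant than in the 3 controls.

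None of the 37 remodeler genes passed an FDR of 0.05 in the comparison of labelled mutants with controls over all genes by edgeR's quasi-likelihood test, where 0.138% of all 15216 tested genes did (21 genes, of which 4 were higher, 0.0263%, and 17 lower, 0.112%). At an unadjusted p under 0.05, 4 of the 37 were higher (10.8%, against 5.22% of all tested genes) and 2 were lower (5.41%, against 4.38%), and DESeq2 called 1 of the 37, Bcl7a, and 1.27% of all tested genes. The median log2 fold change of the 37 was 0.02, beside -0.0003 over all tested genes, and 20 of the 37 were above 0 (54.1%, against 49.9%). The 3 values of each group did not overlap for 6 genes that were higher (16.2%, against 8.17%) and 1 that was lower (2.70%, against 8.49%). Longer genes stood higher in labelled mutant replicate 1, and values by gene length are given below. The part of gene length in these counts was not tested. The 95% intervals of the 37 log2 fold changes lay between -0.47 and 0.50.

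Bcl7a, a small nucleosome-binding subunit of BAF complexes on chromosome 5, came nearest to the threshold and was lower. It stood at 251.6, 256.6 and 266.9 CPM in control replicates 1 to 3 and at 212.4, 215.4 and 199.6 CPM in labelled mutant replicates 1 to 3. Every library labelled mutant lay below every control. Its log2 fold change was -0.30 ± 0.074 (standard error), with a 95% interval of -0.47 to -0.14 and an adjusted p of 0.169. The adjusted p ran from 0.00373 to 0.664 over 16 other fits. Bcl7a passed in 4 of them: DESeq2 (0.0227), SPF-552 alone (0.00373), an exon-length offset (0.0352) and without labelled mutant replicate 1 (0.0237). These 4 fits passed more of all genes: 194 (1.27%), 564 (3.7%), 68 and 330 in the same order, against 21 in the main comparison. The log2 fold change of Bcl7a stayed between -0.36 and -0.27 in all 16 other fits. With the title number as a block, where 0.762% of all genes passed, its adjusted p was 0.0734. In the authors' deposited table, which lists 369 genes, Bcl7a is the single remodeler among the 37, with a log2 fold change of -0.31 and an FDR of 0.0528. No share over the genes that the authors tested was computed, so this count cannot be read as particular to remodelers. The paralogs Bcl7b and Bcl7c, also BAF subunits, had log2 fold changes of -0.02 (adjusted p = 0.979) and 0.11 (adjusted p = 0.733).

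Of the other BAF subunits, Arid1a, the DNA-binding subunit of most BAF complexes, had the largest value above 0 with separate groups. It stood at 442.7, 470.1 and 495.3 CPM in control replicates 1 to 3 and at 596.3, 542.5 and 539.6 CPM in labelled mutant replicates 1 to 3. All 3 libraries labelled mutant lay above all 3 controls, with SPF-539 holding both the lowest and the highest value. Its log2 fold change was 0.25 ± 0.081 (standard error; 95% interval 0.08 to 0.43, adjusted p = 0.319). Its paralog Arid1b had 0.07 (-0.12 to 0.26, adjusted p = 0.842), with overlapping groups.

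The progenitor and neuronal subunits themselves gave small values that did not pass the test. Actl6a stood at 65.1, 62.2 and 68.6 CPM in control replicates 1 to 3 and at 49.9, 62.3 and 72.8 CPM in labelled mutant replicates 1 to 3, so the labelled mutants held both the lowest and the highest library. Actl6b ran from 85.5 to 89.2 CPM in controls and from 75.4 to 87.2 CPM in labelled mutants, with overlap. The log2 fold changes were -0.08 (95% interval -0.35 to 0.18) for Actl6a and -0.10 (-0.28 to 0.08) for Actl6b. Exons of Mrpl47 on the opposite strand cover 11.6% of the exon bases of Actl6a, and those of 1600012H06Rik 9.57% of Phf10, so some reads there may belong to either gene. Ss18 had 0.10 (-0.12 to 0.32) and Ss18l1 -0.08 (-0.28 to 0.13), Dpf1 had 0.02 (-0.15 to 0.19) and Dpf2 -0.03 (-0.25 to 0.20), and Phf10 had -0.01 (-0.19 to 0.17). Dpf3, a reader of acetylated histones in neuronal and muscle BAF, was at 19.7, 20.9 and 22.8 CPM in controls and at 27.3, 26.2 and 21 CPM in labelled mutants. Its groups overlapped through labelled mutant replicate 3, and its log2 fold change was 0.23 (-0.04 to 0.50, adjusted p = 0.604).

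Of the 2 ATPases and 7 core subunits of BAF, 1 had an unadjusted p under 0.05, Smarcd3, with lower values in the labelled mutants, beside 4.38% of all tested genes that were lower at that p. Smarcd3 stood at 152.8, 149.5 and 132.2 CPM in control replicates 1 to 3 and at 133.0, 120.1 and 123.1 CPM in labelled mutant replicates 1 to 3. The groups overlapped through control replicate 3 and labelled mutant replicate 1. Its log2 fold change was -0.21 (95% interval -0.39 to -0.03, adjusted p = 0.447). Exons of Chpf2, on the opposite strand, cover 48.2% of the annotated exon bases of Smarcd3, and the library kit marks no strand, so reads of the 2 genes there cannot be told apart. Smarca4 had 0.12 (-0.08 to 0.33) and Smarca2 0.04 (-0.14 to 0.23), and the scaffold subunits Smarcc1 and Smarcc2 had 0.15 (-0.05 to 0.35) and 0.04 (-0.13 to 0.21). Smarcb1 (-0.15), Smarce1 (-0.10), Smarcd1 (-0.06) and Smarcd2 (-0.05) lay below 0 with intervals that included 0. In PBAF, Arid2 lay at 165.9, 177.3 and 194.6 CPM in controls and at 208.6, 196.9 and 197.0 CPM in labelled mutants, with no overlap and a log2 fold change of 0.16 (-0.01 to 0.34, adjusted p = 0.560). Pbrm1 had 0.02, Brd7 -0.08 and Brd9 of non-canonical BAF -0.05.

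Of the 6 CHD genes 4 had log2 fold changes above 0, and of the 4 ISWI genes all 4 did, beside 49.9% of all tested genes. That share is over genes of all lengths, and none was computed for genes of like length. None of them passed the test. Chd7, a remodeler of enhancers in neural progenitors, stood at 134.9, 143.7 and 172.9 CPM in control replicates 1 to 3 and at 188.1, 183.4 and 183.1 CPM in labelled mutant replicates 1 to 3. The labelled mutants lay close together above a wide spread of controls, with a log2 fold change of 0.30 (95% interval 0.09 to 0.50, adjusted p = 0.310). Chd6 stood at 117.9, 136.9 and 150.8 CPM in controls and at 178.0, 160.5 and 152.8 CPM in labelled mutants, with a log2 fold change of 0.28 (0.06 to 0.49, adjusted p = 0.386). Its groups were separated by the small gap between control replicate 3 and labelled mutant replicate 3. Chd1, which acts with elongating RNA polymerase, had 0.14, the chromatin regulator Chd8 had 0.11, and Chd2 and Chd9 had -0.02 and -0.0017, all 4 with intervals that included 0. For Chd1 the groups did not overlap. Exons of 1810026B05Rik cover 18.4% of those of Chd2, so its counts are uncertain.

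Baz1a pairs with Smarca5 in the ACF and CHRAC complexes. It stood at 29.2, 28.0 and 30.7 CPM in control replicates 1 to 3 and at 34.6, 37.5 and 35.7 CPM in labelled mutant replicates 1 to 3. The groups were apart by more than the spread within either, and the log2 fold change was 0.29 (95% interval 0.09 to 0.50, adjusted p = 0.316). Over the 16 other fits it stayed between 0.26 and 0.33, with adjusted p of 0.0620 to 0.824. Smarca5, Smarca1 and Baz1b, the Williams syndrome transcription factor in humans, had 0.09, 0.11 and 0.16 with intervals that included 0, and Ino80 had -0.08 (-0.29 to 0.12).

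**Figure D3:**
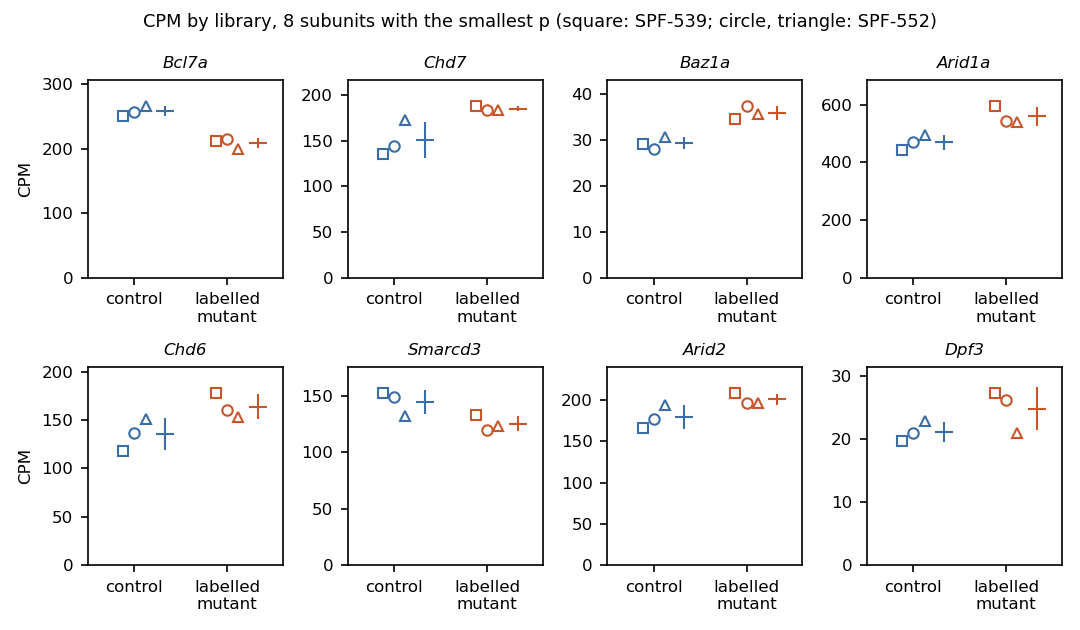
CPM in each library for the 8 remodeler genes with the smallest unadjusted p, with mean ± SD beside each group (squares SPF-539, circles and triangles SPF-552). Bcl7a is lower and Chd7, Baz1a, Arid1a, Chd6 and Arid2 are higher in all 3 libraries labelled mutant, while Smarcd3 and Dpf3 overlap.

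The differences were larger in SPF-539 (1 library against 1) than in SPF-552 (2 against 2) for 30 of the 37 genes. The signs differed for 14 of the 37. Neither count was made over all tested genes, so they cannot be read as particular to remodelers. SPF-539 holds labelled mutant replicate 1, which stood apart by gene length. The log2 ratio of labelled mutant to control had a median of 0.15 over the 37 genes within SPF-539 and of -0.01 within SPF-552. Bcl7a (-0.24 and -0.34), Baz1a (0.24 and 0.32) and Smarcd3 (-0.20 and -0.21) had like values in SPF-539 and SPF-552. In contrast Chd6 (0.59 and 0.12), Chd7 (0.48 and 0.22), Arid1a (0.43 and 0.17) and Chd8 (0.45 and -0.06) were larger in SPF-539. SPF-539 holds 1 library of each group and has no test of its own. Of the 4 progenitor forms, Actl6a (-0.38 and 0.05), Dpf2 (-0.31 and 0.10) and Ss18 (-0.09 and 0.18) were below 0 in SPF-539 and above 0 in SPF-552, and Phf10 (-0.02 and -0.0059) was below 0 in both. Bcl7b, which is no progenitor form, had -0.21 and 0.08, and no test of a difference between the title numbers was made.

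**Figure D4:**
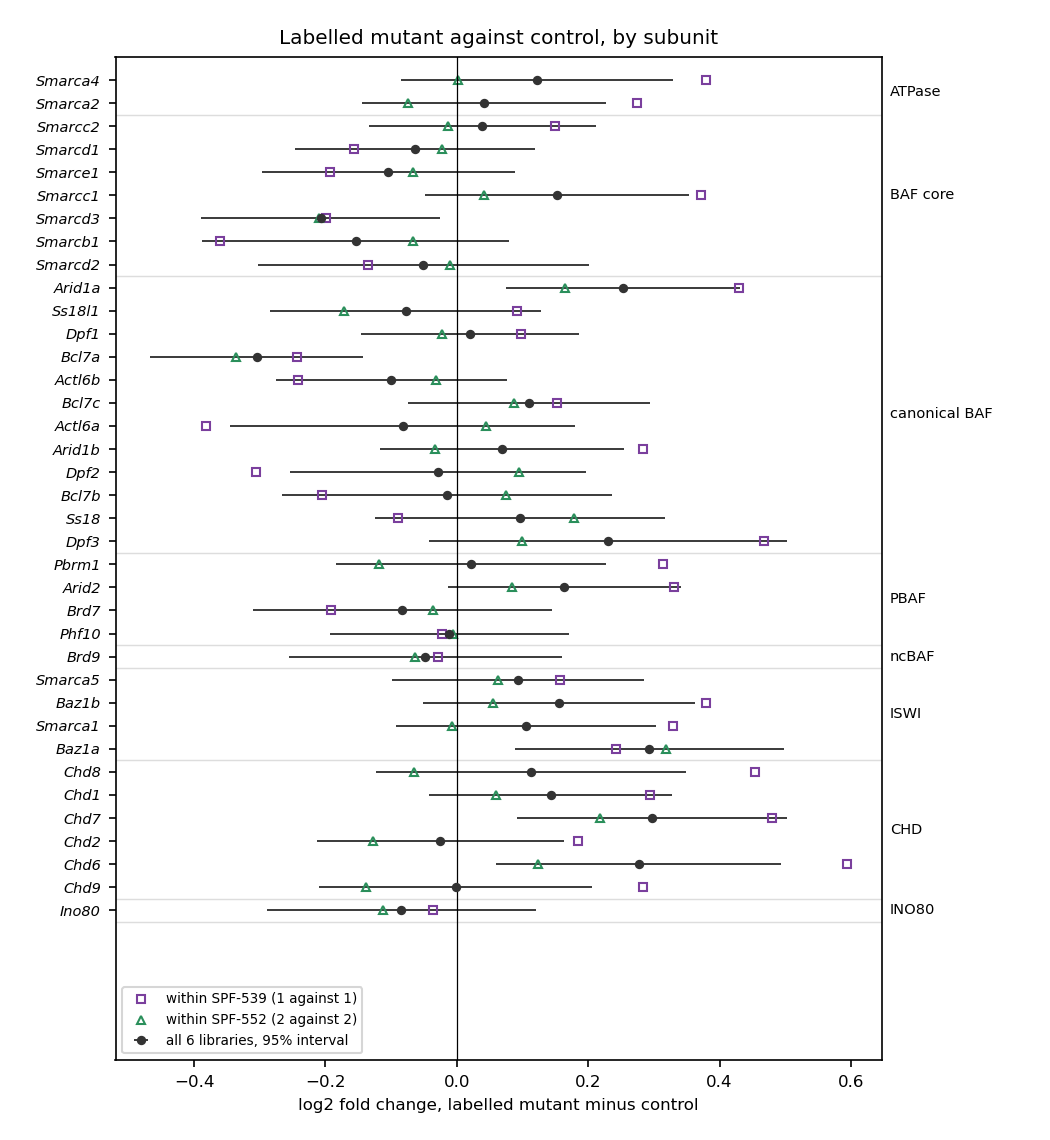
Log2 fold change of each remodeler gene, labelled mutant minus control, over all 6 libraries with its 95% interval, and the log2 ratio within SPF-539 (squares) and within SPF-552 (triangles). The intervals of Bcl7a and Smarcd3 lie below 0 and those of Arid1a, Chd7, Chd6 and Baz1a above 0, and most SPF-539 squares lie farther from 0 than the SPF-552 triangles.

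Exon length moved with these values. Over all tested genes the median log2 fold change went from -0.07 in the shortest bin to 0.07 in the longest. Of the 17 remodeler genes in the longest bin, 13 had a log2 fold change above 0 (median 0.10). In the next longest bin 6 of 10 did (median 0.03), and in the middle bin 1 of 8 (median -0.08). The medians over all tested genes in these 3 bins were 0.07, 0.02 and -0.0049, in the same order. The share of all tested genes above 0 was not computed within bins. With an offset for exon length in each library, chosen after the data were seen, the median over the 37 genes was -0.0095. In that fit Chd7 had 0.21, Arid1a 0.18, Chd6 0.16, Arid2 0.10 and Baz1a 0.26, all closer to 0 than without it. Bcl7a, itself in the longest bin, had -0.36, farther from 0. Dpf3 (0.244 with the offset, 0.230 without) and Smarcd3 (-0.211 and -0.207) were slightly farther from 0 too. The source of the trend with length was not tested.

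**Figure D5:**
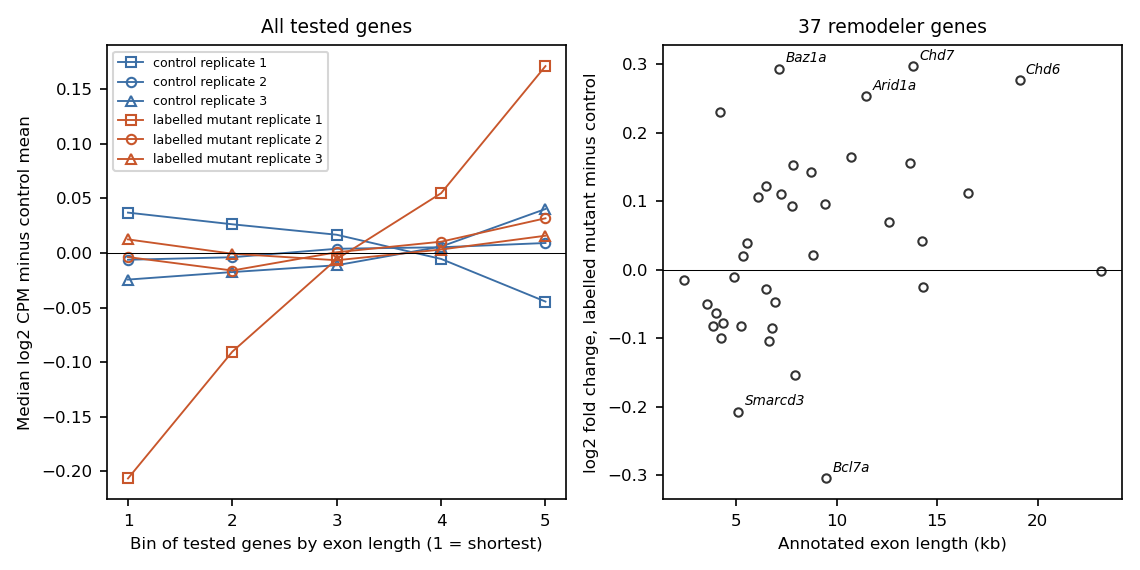
Left, median log2 CPM minus the control mean in each library over 5 bins of all tested genes ordered by annotated exon length. Right, log2 fold change (labelled mutant minus control) of the 37 remodeler genes against exon length in kilobases. Labelled mutant replicate 1 goes from -0.21 to 0.17 across the bins, and Bcl7a has the lowest value, -0.30, among the genes of the longest bin.

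A list of 52 other remodeler genes, among them Chd3 to Chd5, partners of ISWI and subunits of the INO80 and SRCAP complexes, was tested in the same fit. Of 50 tested genes none passed an FDR of 0.05, with 2 higher and 1 lower at an unadjusted p under 0.05 by edgeR's quasi-likelihood test, beside 5.22% and 4.38% of all tested genes, and none called by DESeq2. The median log2 fold change was 0.03, and 26 of the 50 were above 0, beside 49.9% of all tested genes. Bcl11a, a zinc-finger factor of cortical neurons that binds BAF, was lower in all 3 libraries labelled mutant (282.1 to 292.5 CPM) than in controls (328.1 to 347.0 CPM), with a log2 fold change of -0.24 and an adjusted p of 0.276. Baz2a, of the nucleolar remodeling complex, had 0.27 (adjusted p = 0.335), the neuronal gene Chd5 had 0.22 (adjusted p = 0.472) and Smarcal1, which remodels stalled replication forks, had 0.19 (adjusted p = 0.565). Below 0, Chrac1 and Pole3, the histone-fold partners of Baz1a in CHRAC, had -0.24 (adjusted p = 0.581) and -0.16 (adjusted p = 0.604).

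Summed levels of 5 of the cell type marker lists did not overlap between the groups, although few single genes passed the test. Of all single tested genes, 8.17% were higher without overlap, 8.49% were lower without overlap, and 49.9% lay above 0. No such share was computed for sums of lists, and sums rest mostly on abundant genes. Among radial glia genes, Vim, Nes and Fabp7 had control means of 685.3, 536.1 and 424.6 CPM. In bulk tissue, fewer cells of a type and less RNA per cell cannot be told apart. All 10 intermediate progenitor genes lay below 0, with a summed level of 767.4 to 819.3 CPM in controls and 572.0 to 638.8 CPM in labelled mutants, and Eomes fell (log2 fold change -0.65, adjusted p = 0.0472). Of 10 excitatory cortical neuron genes 9 lay below 0, and Neurod6 and Neurod2 were among those that fell (adjusted p = 0.0030 and 0.0116), with sums of 1895 to 2016 and 1364 to 1668 CPM. Radial glia genes lay above 0 in 10 of 11 cases (2272 to 2529 and 2606 to 2841 CPM), ganglionic eminence genes in 13 of 13 (925.4 to 1047 and 1128 to 1280 CPM) and genes of the diencephalon and other regions in 11 of 11 (368.0 to 426.2 and 452.5 to 566.8 CPM), with no gene of these 3 lists called. General neuron markers, which bear on the neuronal BAF subunits, had overlapping sums of 6749 to 7175 CPM in controls and 6468 to 7201 CPM in labelled mutants, and 9 of 12 lay below 0. Markers of endothelial cells and pericytes, meninges and microglia overlapped between the groups as sums, as did those of choroid plexus. Sums of erythroid genes overlapped too, with all 8 genes below 0 (median log2 fold change -0.26) and none called, and no gene of any list was at 0 in all libraries. The part of these differences in the values of the remodeler genes was not tested.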

How the data were processed

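Total RNA of forebrain was made into libraries with a TruSeq v2 kit, per the labels' protocols. Per the submitters' processing notes, the genome build was mm10 (GRCm38), and the tools listed, with no role given, were edgeR 3.4.2, HTSeq 0.5.4p5 and TopHat2 2.0.9. The deposited table holds estimated counts, not scaled between libraries, of which 22.7% to 24.9% per library are not whole, and they were rounded before testing. The authors' deposited comparison holds log2 fold changes, log2 CPM, p-values with FDR and a likelihood-ratio score, and lists FDR up to 0.0994.

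Groups came from the genotype labels, and replicate numbers follow accession order. The comparison used edgeR 4.0.16 in R 4.3.3 (filterByExpr with a minimum count of 10, TMM, robust quasi-likelihood, Benjamini-Hochberg over 15216 genes). CPM uses TMM-scaled totals. Lengths, symbols and overlaps came from GENCODE M21 (214 identifiers unmatched). Over the 37 genes the standard error of a log2 fold change had a median of 0.0936. Replicates of a group differed by chi-square values of 4.77 to 27.5 per gene, so none was a copy. Labels do not say whether animals were pooled, so p-values measure the spread between these samples. The main edgeR fit alone was tested on simulated counts, which held no title-number effect and no trend with gene length. Alternatives used DESeq2 1.42.0, limma 3.58.1, other scalings and filters, a title-number block, SPF-552 alone and each library left out. Values were named for the 8 genes with the smallest p, for progenitor and neuronal subunits, and for other lists by smallest p. The members and lists were chosen with earlier results of these data known.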

Additional observations from a re-analysis of the deposited data

How the results depend on the processing

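No paired analysis was possible because the replicate numbers follow accession order; the title number was used as a block instead, and with the title-number block no remodeler gene passed (Bcl7a adjusted p = 0.0734). No gene of the 37 passed as higher in any of the 16 other fits or at an FDR of 0.1. As lower, 1 of the 37 (Bcl7a) passed with DESeq2, within SPF-552 alone, with the exon-length offset, and in 1 of 6 fits without a library (range 0 to 1, the call made without labelled mutant replicate 1). The count of all tested genes past an FDR of 0.05 was 194 with DESeq2, 564 within SPF-552 alone, 68 with the exon-length offset, 11 with limma-voom, 130 with no filter, 116 with the title-number block, 56 at an FDR of 0.1 and 3 to 330 when each library was left out (330 without labelled mutant replicate 1). Within SPF-552 alone, where 3.7% of all genes passed, 2 of the 50 other remodelers did. They were Bcl11a (-0.26, adjusted p = 0.0117) and Bcl11b (-0.28, adjusted p = 0.00661). Bcl11b is also on the list of excitatory cortical neuron genes. The causes were not tested. With 3 libraries in each group, the median standard error of 0.0936 over the 37 genes limits what can be detected.

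Signs changed for 16 of the 37 genes in at least 1 other fit, all with a log2 fold change within 0.11 of 0, and held in all 16 fits for 21, including the 8 with the smallest p. Within SPF-552 alone the log2 fold change was -0.0074 for Smarca1, -0.067 for Chd8, -0.033 for Arid1b, 0.048 for Actl6a, -0.013 for Smarcc2, -0.075 for Smarca2, 0.096 for Dpf2, -0.021 for Dpf1, -0.12 for Pbrm1 and 0.077 for Bcl7b. With the exon-length offset it was -0.0095 for Arid1b, -0.052 for Smarca2, -0.028 for Pbrm1 and 0.043 for Bcl7b. For Chd9 it was 0.0015 with DESeq2 and with RLE factors, 0.0024 with limma-voom and 0.00024 with the title-number block. Leaving out each library gave -0.0047 to 0.20 for Chd8, -0.15 to 0.021 for Brd7, -0.11 to 0.0061 for Smarcd1, -0.22 to 0.050 for Actl6a, -0.15 to 0.0097 for Brd9, -0.014 to 0.077 for Smarcc2, -0.017 to 0.083 for Smarca2, -0.079 to 0.042 for Chd2, -0.11 to 0.087 for Dpf2, -0.031 to 0.060 for Dpf1, -0.061 to 0.095 for Pbrm1, -0.054 to 0.033 for Phf10, -0.088 to 0.056 for Bcl7b and -0.078 to 0.084 for Chd9. The difference in log2 ratio within SPF-552 alone was -0.044 for the BAF45 set and -0.071 for the ISWI ATPases, and leaving out each library gave -0.091 to 0.11 for BAF53, -0.061 to 0.19 for BAF45 and -0.081 to 0.085 for the ISWI ATPases.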
